A study of Mus musculus with 18 samples.

Results

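The lipopolysaccharide (LPS) tolerance response of peritoneal macrophages was set between genotypes as an interaction: the change from a single dose to 2 doses of LPS in *Zeb1*∆M macrophages, minus the same change in *Zeb1*WT macrophages. It was measured by RNA-seq in 12 of the 18 libraries of the study, 3 in each of 4 groups. The groups were *Zeb1*∆M LPS + LPS, *Zeb1*∆M LPS, *Zeb1*WT LPS + LPS and *Zeb1*WT LPS, chosen by genotype and treatment with no use of expression values. *Zeb1*∆M mice were Zeb1f/f LysM Cre animals, which carry floxed *Zeb1* alleles together with a Cre recombinase expressed from the *Lyz2* (LysM) promoter, and *Zeb1*WT mice carried the floxed alleles with no Cre. Both lines were on C57BL/6. LPS + LPS mice had 2 injections of LPS a day apart, whereas LPS mice had PBS first and LPS a day later, so that both arms ended with a dose of LPS. Macrophages came from the peritoneal lavage, sorted on CD11b and F4/80, and each library was a pool of 2 to 3 mice. The age and sex of the mice were not given in the sources used here. An interaction above 0 means that the log2 change with tolerance lay further up, or less far down, in *Zeb1*∆M macrophages, and one below 0 the reverse.

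In endotoxin tolerance, macrophages that have met LPS answer a further dose with less of the inflammatory programme while other genes stay inducible. ZEB1 is a zinc finger transcription factor that binds E-box motifs in promoters and can repress or activate, and it is best known for its part in epithelial to mesenchymal transition. The peritoneal cavity of mice holds resident large macrophages, maintained by the factor GATA6, and smaller monocyte-derived macrophages, beside B cells, mast cells and eosinophils.

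Total counts ran between 14053706 and 22774325 per library, and 13029 of 55573 genes passed the filter on low counts. The macrophage genes *Adgre1* (F4/80) and *Itgam* (CD11b) lay between 2096 and 4033 and between 554 and 1318 normalised CPM (counts scaled to a common library size), while *Cd3e* and *Msln*, of T cells and mesothelium, were under 0.3 CPM in each of the 12 libraries. The first *Zeb1*WT LPS + LPS library stood apart from its group. Its mean correlation across genes was 0.966 with the *Zeb1*∆M LPS + LPS libraries and 0.940 with the other *Zeb1*WT LPS + LPS libraries. Results are given with this library in, and without it where a call depends on it.

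*Zeb1* itself, measured over the whole gene so that transcripts with a deleted part still count, had 0.896, 1.13 and 0.921 CPM in *Zeb1*∆M LPS + LPS and 2.73, 3.55 and 1.62 CPM in *Zeb1*∆M LPS libraries. It had 1.10, 3.04 and 1.30 CPM in *Zeb1*WT LPS + LPS and 7.61, 7.99 and 8.65 CPM in *Zeb1*WT LPS libraries. The genotypes did not overlap after a single dose, but after 2 doses 2 of the *Zeb1*WT libraries were close to the *Zeb1*∆M ones. *Zeb1* fell with tolerance in *Zeb1*∆M (log2 fold change −1.42, edgeR adjusted p = 0.024) and in *Zeb1*WT macrophages (−2.15, adjusted p = 0.0015), and its interaction was 0.74 ± 0.60 (SE; adjusted p = 0.85). The gap between genotypes did not pass the test after 2 doses (−0.88, adjusted p = 0.44) or after 1 dose (−1.61, adjusted p = 0.086).

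No gene passed the test of the interaction by edgeR's quasi-likelihood test at a Benjamini-Hochberg adjusted p under 0.05 (0% of 13029 genes), while 963 genes had an unadjusted p under 0.05 (7.39%). Of these, 625 (4.8%) were above 0 and 338 (2.59%) below 0. DESeq2 called 85 genes above 0 (0.653%) and 4 below 0 (0.0307%), which is 0.684% of the 13018 genes to which it gave an adjusted p, and limma voom called 0. Whether a gene is called thus differed between tools, so edgeR and DESeq2 adjusted p-values are given side by side for the genes with the smallest p. Without the first *Zeb1*WT LPS + LPS library edgeR called 3 genes, *Dapk1*, *Cgnl1* and *Steap4*, without the first *Zeb1*∆M LPS + LPS library it called *Pou2af1*, and without any other single library it called none. The p-values measure the spread between pools of mice.

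The tolerance response itself was large in both genotypes and ran mostly in the same direction. In *Zeb1*∆M macrophages 2384 genes rose (18.3% of genes tested) and 2101 fell (16.1%) with the 2 doses, 34.4% in all, and in *Zeb1*WT macrophages 2743 rose (21.1%) and 2319 fell (17.8%), 38.9% in all. The responses share no library and correlated across the 13029 genes with r = 0.797 and rho = 0.806. Among the 7469 genes with a mean log2 CPM of at least 3, r was 0.916 and rho was 0.888. These values describe the genes and have no p, since genes are not replicates. Of the genes called in *Zeb1*∆M, 77.2% were also called in *Zeb1*WT, and of those called in *Zeb1*WT, 68.4% were also called in *Zeb1*∆M. Together 1844 genes rose in both, 1620 fell in both and 3 were called in opposite directions. Over genes that fell in *Zeb1*WT macrophages, the median change was −1.09 in *Zeb1*∆M and −1.48 in *Zeb1*WT, and over genes that rose in *Zeb1*WT it was 1.15 and 1.41. These medians carry the choice of genes by the *Zeb1*WT arm: over genes that fell in *Zeb1*∆M they were −1.23 in *Zeb1*∆M and −1.21 in *Zeb1*WT.

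How precisely the 12 libraries measured the interaction of each gene is given by the intervals. These are not adjusted for the number of genes tested. The test at an adjusted p asks for more, and no gene passed it. The 95% interval of the interaction had a median half-width of 0.98 on the log2 scale, and it lay wholly between −1 and 1 for 3900 genes (29.9%). Among the 7469 genes with a mean log2 CPM of at least 3, the half-width was 0.71 and 3792 genes (50.8%) had an interval within −1 to 1. For these genes a difference of more than 2-fold between the genotypes' responses lay outside the interval. The median interaction over the genes tested was −0.04 (quartiles −0.36 and 0.36), and 6078 of 13029 genes (46.6%) lay above 0.

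**Figure D1:**
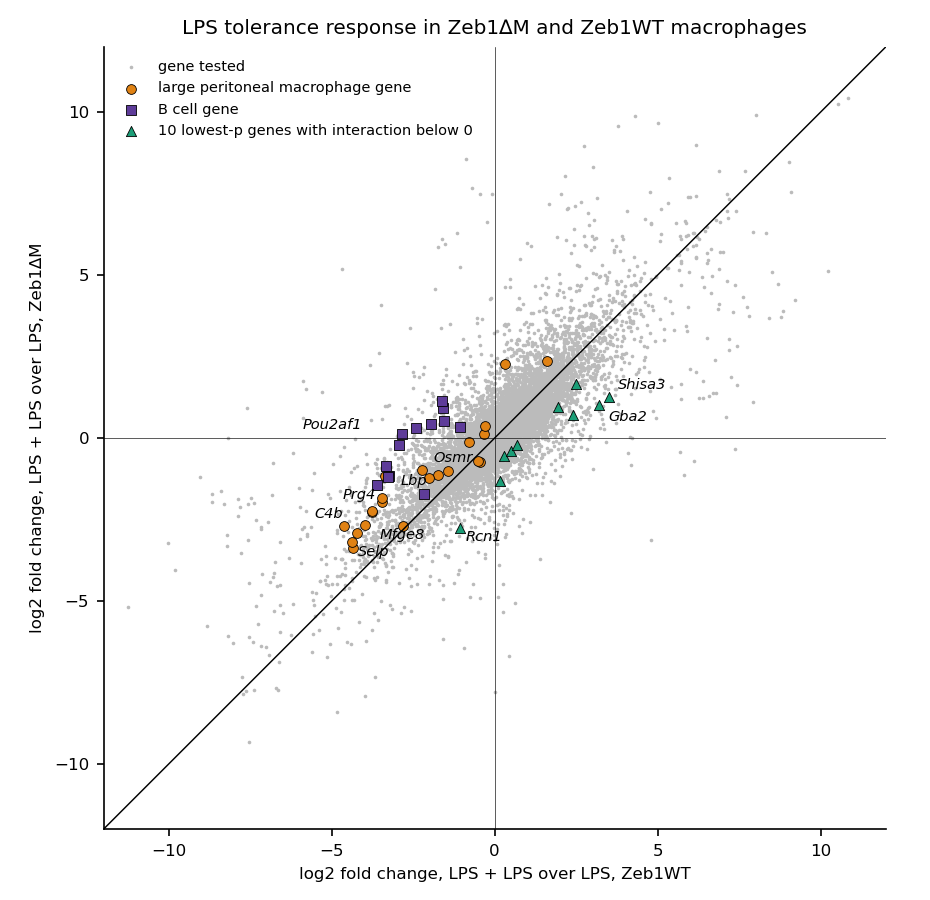
Log2 fold change of LPS + LPS over LPS in *Zeb1*WT macrophages (x axis) against that in *Zeb1*∆M macrophages (y axis) for the 13029 genes tested, with r = 0.797. Genes of the large peritoneal macrophage list and of the B cell list are marked, as are the 10 genes with the smallest p among those with an interaction below 0; the marked genes of both lists lie mostly above the diagonal of equal response.

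Most genes of resident large peritoneal macrophages fell with tolerance in both genotypes, with the smaller median change in *Zeb1*∆M macrophages. The list of 22 genes held 20 with an interaction above 0 and 2 below 0, with a median of 1.09 (quartiles 0.61 and 1.52) against −0.04 over the genes tested. Unadjusted p was under 0.05 for 14 of them, all above 0 (4.8% over the genes tested), and DESeq2 called 5 above 0 (0.653% over the genes tested). This list and the others below were chosen with earlier results of these data known. Their shares beside those of all genes tested are thus a description and no independent test. With tolerance, 12 of the 22 genes fell (16.1% over the genes tested) and 2 rose (18.3%) in *Zeb1*∆M, with a median of −1.21, and 16 fell (17.8%) and 1 rose (21.1%) in *Zeb1*WT, with a median of −2.52.

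*Prg4*, which encodes the lubricating proteoglycan lubricin, had 1125, 1758 and 1154 CPM in *Zeb1*∆M LPS + LPS against 5911, 6446 and 6537 CPM in *Zeb1*∆M LPS libraries. In *Zeb1*WT macrophages it had 379, 303 and 363 CPM with LPS + LPS against 3598, 4740 and 5854 CPM with LPS. Each *Zeb1*∆M library was above each *Zeb1*WT library in both arms, by a wide gap after 2 doses (log2 difference 1.95, edgeR adjusted p = 0.0074) and by a small one after 1 dose (0.41, adjusted p = 0.41). *Prg4* fell by 2.23 in *Zeb1*∆M and by 3.76 in *Zeb1*WT on the log2 scale, and the interaction was 1.54 ± 0.32 (edgeR adjusted p = 0.17, DESeq2 adjusted p = 0.0012). *Selp*, the adhesion molecule P-selectin, followed the same pattern. It had 539, 741 and 816 CPM in *Zeb1*∆M LPS + LPS, 6029, 6358 and 6607 CPM in *Zeb1*∆M LPS, 261, 245 and 217 CPM in *Zeb1*WT LPS + LPS and 4740, 5728 and 4698 CPM in *Zeb1*WT LPS libraries, with an interaction of 1.21 ± 0.26 (edgeR adjusted p = 0.18, DESeq2 0.0018).

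Complement component *C4b* had 1125, 1876 and 1062 CPM in *Zeb1*∆M LPS + LPS and 404, 368 and 231 CPM in *Zeb1*WT LPS + LPS libraries, against 6009, 11126 and 9195 CPM in *Zeb1*∆M LPS and 6670, 10278 and 7675 CPM in *Zeb1*WT LPS libraries. The groups that had 2 doses did not overlap, and those that had 1 dose did. The interaction of *C4b* was 1.92 ± 0.43 (edgeR adjusted p = 0.20, DESeq2 0.0045). *Garnl3* and *Timd4* (Tim-4, a receptor for phosphatidylserine on dying cells) had interactions of 2.18 and 1.5 (edgeR adjusted p = 0.20 and 0.26, DESeq2 0.0045 and 0.022). *Timd4* had 101, 135 and 57.1 CPM in *Zeb1*∆M LPS + LPS against 420, 523 and 459 CPM in *Zeb1*∆M LPS libraries, and 42.9, 35.9 and 45.5 CPM in *Zeb1*WT LPS + LPS against 470, 672 and 541 CPM in *Zeb1*WT LPS libraries. *Gata6*, the factor that maintains these cells, was with *Cd9* 1 of the 2 genes of the list below 0, at −0.29 (edgeR adjusted p = 0.97), with 32.9, 14.2 and 12.6 CPM in *Zeb1*∆M LPS + LPS, 34.3, 29.7 and 35.8 CPM in *Zeb1*∆M LPS, 10.6, 0.967 and 3.44 CPM in *Zeb1*WT LPS + LPS and 4.58, 2.84 and 13.2 CPM in *Zeb1*WT LPS libraries. *Timd4*, *Gata6* and *Cd9* were picked from the list after their values were seen.

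Summed over the 22 genes, the level was 36287, 53274 and 42419 CPM in *Zeb1*∆M LPS + LPS and 25981, 19641 and 18989 CPM in *Zeb1*WT LPS + LPS libraries. After a single dose it was 106748, 100434 and 101192 CPM in *Zeb1*∆M and 77907, 108365 and 84014 CPM in *Zeb1*WT libraries. The sums did not overlap between genotypes after 2 doses and overlapped after 1 dose. In bulk RNA, fewer cells of a type and less RNA per cell cannot be told apart. The median of the list ranged between 0.84 and 1.18 when single libraries were left out and was 1.06 without the first *Zeb1*WT LPS + LPS library. Over the 12 genes of small peritoneal macrophages and monocytes the median interaction was −0.15, with 5 genes above 0 and 7 below 0, and it turned to 0.07 without that library. Summed neutrophil genes were 4615, 3942 and 4953 CPM in *Zeb1*∆M LPS + LPS and 3783, 9466 and 5674 CPM in *Zeb1*WT LPS + LPS libraries, against 1691, 1970 and 2137 CPM in *Zeb1*∆M LPS and 2745, 2164 and 2417 CPM in *Zeb1*WT LPS libraries. Of the 21 neutrophil genes, 13 had an interaction above 0 (46.6% over the genes tested) and 8 below 0. Their median was 0.36, and 0.05 to 0.82 with libraries left out. After 1 dose, 3 of the 21 were called lower in *Zeb1*∆M (1.04% over the genes tested). The part of such cells in the interaction was not tested.

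Several genes outside that list were at like levels in both genotypes after 1 dose and higher in *Zeb1*∆M after 2. *Lbp* (chr2:158306493-158332852, plus strand, GRCm38) encodes the LPS-binding protein, which hands LPS to CD14 and the TLR4 receptor. It had 37.3, 47.8 and 43.2 CPM in *Zeb1*∆M LPS + LPS against 88.8, 107 and 130 CPM in *Zeb1*∆M LPS libraries, and 10.2, 14.6 and 8.22 CPM in *Zeb1*WT LPS + LPS against 94.4, 128 and 125 CPM in *Zeb1*WT LPS libraries. *Lbp* thus fell in both genotypes, by 1.35 in *Zeb1*∆M (edgeR adjusted p = 0.00057) and by 3.40 in *Zeb1*WT (6.8e-07). The genotype difference was 1.96 after 2 doses (adjusted p = 0.0074) and −0.09 after 1 dose (0.89). Its interaction was 2.05 ± 0.32 with a 95% interval of 1.36 to 2.74 (edgeR adjusted p = 0.12, DESeq2 2.1e-05), and 2.01 without the first *Zeb1*WT LPS + LPS library (edgeR adjusted p = 0.096).

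*Mfge8*, a bridging protein that helps phagocytes take up apoptotic cells, had 17.6, 16.5 and 16.9 CPM in *Zeb1*∆M LPS + LPS against 6.36, 6.5 and 7.49 CPM in *Zeb1*WT LPS + LPS libraries. After 1 dose the genotypes overlapped at 110, 79.1 and 106 CPM in *Zeb1*∆M and 82.8, 94.0 and 86.0 CPM in *Zeb1*WT libraries. It fell by 2.53 in *Zeb1*∆M and by 3.69 in *Zeb1*WT, with an interaction of 1.15 ± 0.23 (edgeR adjusted p = 0.17, DESeq2 0.0036). *Fabp7*, a fatty acid binding protein, had 64.9, 64.0 and 59.3 CPM in *Zeb1*∆M LPS + LPS, 96.0, 85.0 and 117 CPM in *Zeb1*∆M LPS, 26.4, 25.7 and 28.1 CPM in *Zeb1*WT LPS + LPS and 84.6, 123 and 91.0 CPM in *Zeb1*WT LPS libraries. Its interaction was 1.24 ± 0.25 (edgeR adjusted p = 0.17, DESeq2 0.0039).

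*Osmr*, a receptor chain for oncostatin M that pairs with gp130, fell with tolerance in *Zeb1*WT only by the test within each arm. It had 13.2, 23.1 and 25.6 CPM in *Zeb1*∆M LPS + LPS against 18.7, 25.2 and 23.6 CPM in *Zeb1*∆M LPS libraries, which overlap, and 5.39, 4.24 and 3.82 CPM in *Zeb1*WT LPS + LPS against 20.3, 21.2 and 11.8 CPM in *Zeb1*WT LPS libraries, which do not. The change was −0.13 in *Zeb1*∆M (edgeR adjusted p = 0.76) and −1.99 in *Zeb1*WT (0.00022), and the test of the difference gave 1.86 ± 0.41 (edgeR adjusted p = 0.20, DESeq2 0.0069). *Il6st*, which encodes gp130 itself, had an interaction of 0.86 ± 0.26 (edgeR adjusted p = 0.41, DESeq2 0.11), with changes of −0.37 in *Zeb1*∆M and −1.23 in *Zeb1*WT. The laminin receptor subunit *Itga6* had an interaction of 1.35 ± 0.30 (edgeR adjusted p = 0.20, DESeq2 0.010).

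*Dapk1*, a calcium and calmodulin dependent kinase tied to cell death, was chosen after its values were seen, since edgeR called it when a library was left out. It had 48.6, 62.2 and 53.6 CPM in *Zeb1*∆M LPS + LPS against 22.7, 23.2 and 27.8 CPM in *Zeb1*∆M LPS libraries, and 24.4, 15.8 and 11.6 CPM in *Zeb1*WT LPS + LPS against 22.3, 23.7 and 25.7 CPM in *Zeb1*WT LPS libraries. The *Zeb1*∆M LPS + LPS libraries lay above each of the others, and the first *Zeb1*WT LPS + LPS library was the highest of its group. The interaction was 1.63 (edgeR adjusted p = 0.17, DESeq2 0.0032), and 1.97 without that library (edgeR adjusted p = 0.043). *Cgnl1*, a tight junction protein also chosen after its values were seen, was at 0 in all *Zeb1*WT LPS + LPS libraries but the first, which had 2.65 CPM, against 2.57, 4.30 and 5.59 CPM in *Zeb1*∆M LPS + LPS libraries, so its call without the first library rests on a group at 0.

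**Figure D2:**
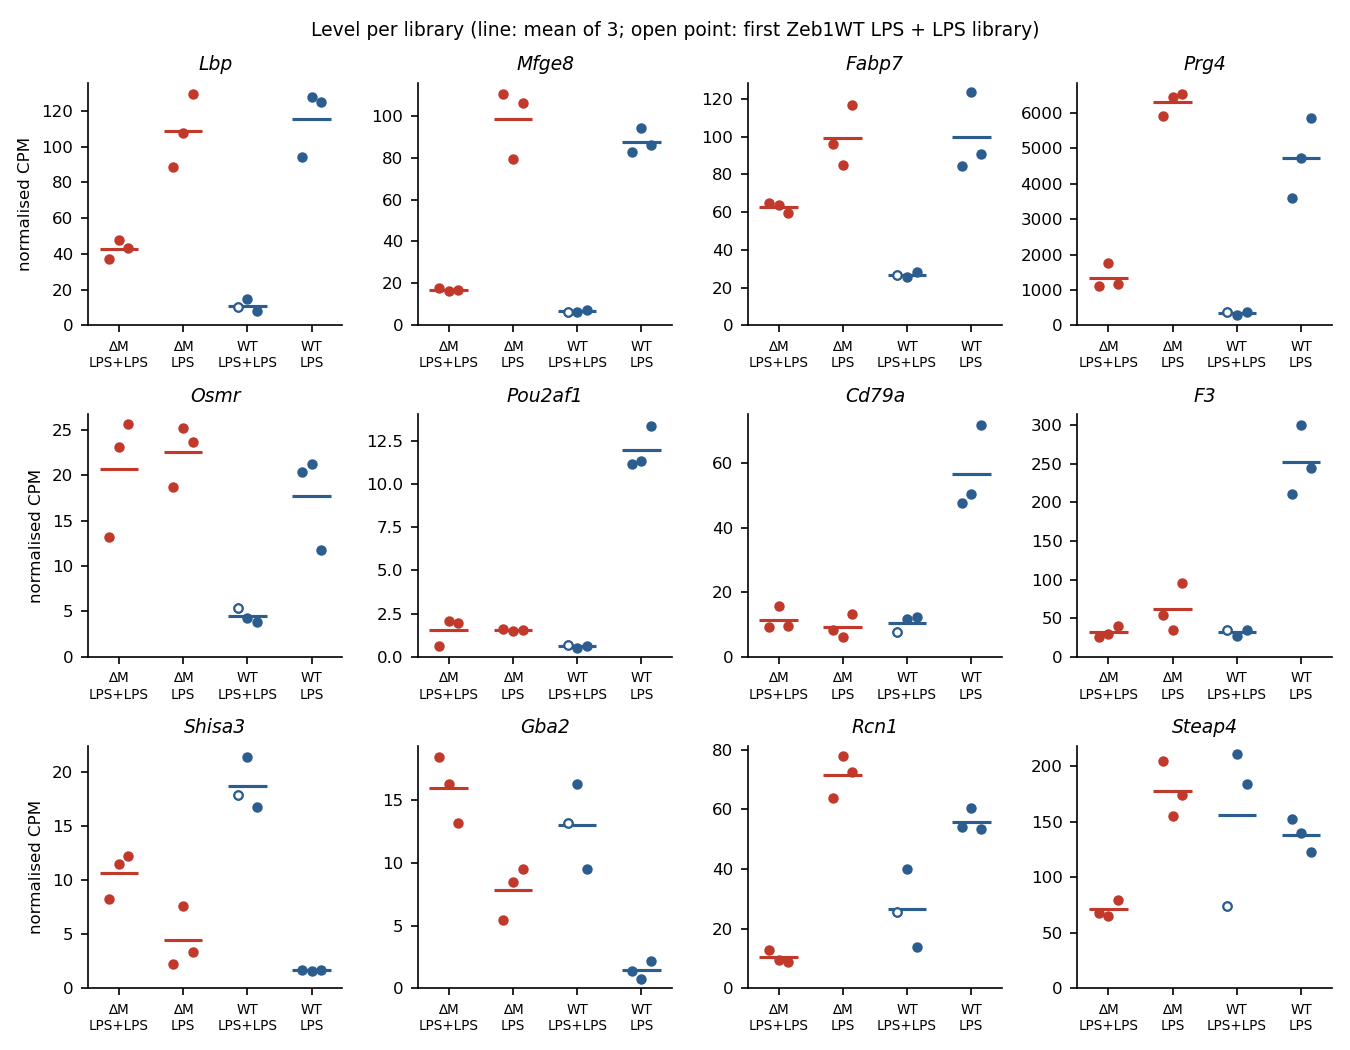
Normalised CPM (y axis of each panel, starting at 0) in each of the 12 libraries for 12 genes, with *Zeb1*∆M in red, *Zeb1*WT in blue and a line at the mean of 3. The open point is the first *Zeb1*WT LPS + LPS library; for *Lbp*, *Mfge8*, *Fabp7*, *Prg4* and *Osmr* the genotypes separate in LPS + LPS, for *Pou2af1*, *Cd79a* and *F3* in LPS, and for *Steap4* the open point lies with the *Zeb1*∆M LPS + LPS libraries.

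Most coagulation and serpin genes also lay above 0. Of 14 coagulation and fibrinolysis genes tested, 10 had an interaction above 0 (46.6% over the genes tested), 7 of them with an unadjusted p under 0.05 (4.8%), and DESeq2 called 2 (0.653%), while 4 of the genes also stand in the large macrophage list. Their median was 0.61. Of 12 serpin and granzyme genes tested, 9 were above 0 (46.6%), 4 with an unadjusted p under 0.05 (4.8%) and 2 called by DESeq2 (0.653%), with a median of 1.38. *Serpinb2*, 1 of the 12, also stands in the large macrophage list. *F3*, tissue factor, which starts clotting, differed between genotypes in the LPS arm: it had 25.5, 29.6 and 40.0 CPM in *Zeb1*∆M LPS + LPS and 34.8, 26.7 and 34.9 CPM in *Zeb1*WT LPS + LPS libraries, but 53.9, 35 and 95.4 CPM in *Zeb1*∆M LPS and 211, 300 and 244 CPM in *Zeb1*WT LPS libraries. The interaction of *F3* was 2.01 ± 0.43 (edgeR adjusted p = 0.18, DESeq2 0.0046). *Serpinb9*, an inhibitor of granzyme B, fell by 2.05 in *Zeb1*∆M and by 4.04 in *Zeb1*WT, with an interaction of 1.99 ± 0.46 (edgeR adjusted p = 0.22, DESeq2 0.0083).

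The group with the largest median among the 23 lists of at least 10 tested genes was that of B cell genes. Each of the 13 tested genes had an interaction above 0, with a median of 2.39 (quartiles 2.08 and 2.72), and 10 had an unadjusted p under 0.05 (4.8% over the genes tested). DESeq2 called 4 of the 13 (0.653%). The B cell list too was chosen with earlier results of these data known. With tolerance 2 of the 13 fell in *Zeb1*∆M (16.1%), with a median of 0.12, and 11 fell in *Zeb1*WT (17.8%), with a median of −2.41. The genotypes were apart in the LPS arm (median −2.33, 4 genes called lower in *Zeb1*∆M, 1.04% over the genes tested) and not in the LPS + LPS arm (median 0.06, 0 called).

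*Cd79a*, a signalling subunit of the B cell receptor, had 9.25, 15.8 and 9.56 CPM in *Zeb1*∆M LPS + LPS against 8.44, 6.08 and 13.3 CPM in *Zeb1*∆M LPS libraries, and 7.55, 11.8 and 12.5 CPM in *Zeb1*WT LPS + LPS against 47.5, 50.5 and 71.7 CPM in *Zeb1*WT LPS libraries. The *Zeb1*WT LPS libraries stood above the other 9. Its interaction was 2.72 ± 0.45 (edgeR adjusted p = 0.12, DESeq2 3.5e-05). *Ms4a1*, which encodes CD20, had 4.44, 7.27 and 3.11 CPM in *Zeb1*∆M LPS + LPS, 9.50, 6.99 and 10.2 CPM in *Zeb1*∆M LPS, 4.86, 6.26 and 4.05 CPM in *Zeb1*WT LPS + LPS and 53.4, 44.2 and 56.5 CPM in *Zeb1*WT LPS libraries. It fell by 0.85 in *Zeb1*∆M (edgeR adjusted p = 0.041) and by 3.34 in *Zeb1*WT (4.3e-06), with an interaction of 2.50 ± 0.41 (edgeR adjusted p = 0.12, DESeq2 3.4e-05). *Ighm*, the heavy chain of IgM, had an interaction of 2.07 ± 0.40 (edgeR adjusted p = 0.17, DESeq2 0.0011).

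*Pou2af1*, which encodes the OCT coactivator of B cells OBF-1 and was no member of the list, had the smallest p of all genes. It had 0.611, 2.05 and 1.96 CPM in *Zeb1*∆M LPS + LPS against 1.58, 1.51 and 1.56 CPM in *Zeb1*∆M LPS libraries, and 0.707, 0.507 and 0.611 CPM in *Zeb1*WT LPS + LPS against 11.2, 11.3 and 13.4 CPM in *Zeb1*WT LPS libraries. The interaction was 4.25 ± 0.58 (edgeR adjusted p = 0.080, DESeq2 4.5e-08), and 4.65 without the first *Zeb1*∆M LPS + LPS library, the lowest of its group (edgeR adjusted p = 0.0023). *Zbtb32*, a zinc finger repressor of lymphocytes, had 5.22, 11.5 and 6.56 CPM in *Zeb1*∆M LPS + LPS against 6.86, 4.76 and 6.92 CPM in *Zeb1*∆M LPS libraries, and 6.14, 6.08 and 8.90 CPM in *Zeb1*WT LPS + LPS against 33.7, 33.5 and 35.9 CPM in *Zeb1*WT LPS libraries. Its interaction was 2.61 ± 0.42 (edgeR adjusted p = 0.12, DESeq2 2.1e-05), again with the *Zeb1*WT LPS libraries above the rest.

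Summed over the B cell list, the level was 158, 315 and 176 CPM in *Zeb1*∆M LPS + LPS, 178, 160 and 216 CPM in *Zeb1*∆M LPS, 164, 178 and 244 CPM in *Zeb1*WT LPS + LPS and 669, 577 and 859 CPM in *Zeb1*WT LPS libraries. These sums were below the level of *Adgre1* alone in every library, and some peritoneal B cells carry CD11b, 1 of the 2 markers of the sort. The part of B cells among the sorted cells was not tested. Other genes with a small p had the same shape of high *Zeb1*WT LPS libraries: *Grap*, an adaptor of lymphoid receptors, had 24.2, 31.3 and 26.8 CPM in *Zeb1*∆M LPS + LPS, 23.4, 20.7 and 27.7 CPM in *Zeb1*∆M LPS, 14.8, 21.5 and 19.9 CPM in *Zeb1*WT LPS + LPS and 51.4, 42.8 and 74.0 CPM in *Zeb1*WT LPS libraries, with an interaction of 1.78 ± 0.32 (edgeR adjusted p = 0.13, DESeq2 0.00054). *Bcar3*, an adaptor of adhesion signalling, had 2.97, 4.35 and 4.95 CPM in *Zeb1*∆M LPS + LPS, 5.81, 8.49 and 10.7 CPM in *Zeb1*∆M LPS, 4.90, 4.38 and 4.24 CPM in *Zeb1*WT LPS + LPS and 40.0, 29.5 and 51.7 CPM in *Zeb1*WT LPS libraries, with an interaction of 2.13 ± 0.40 (edgeR adjusted p = 0.16, DESeq2 0.00066).

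**Figure D3:**
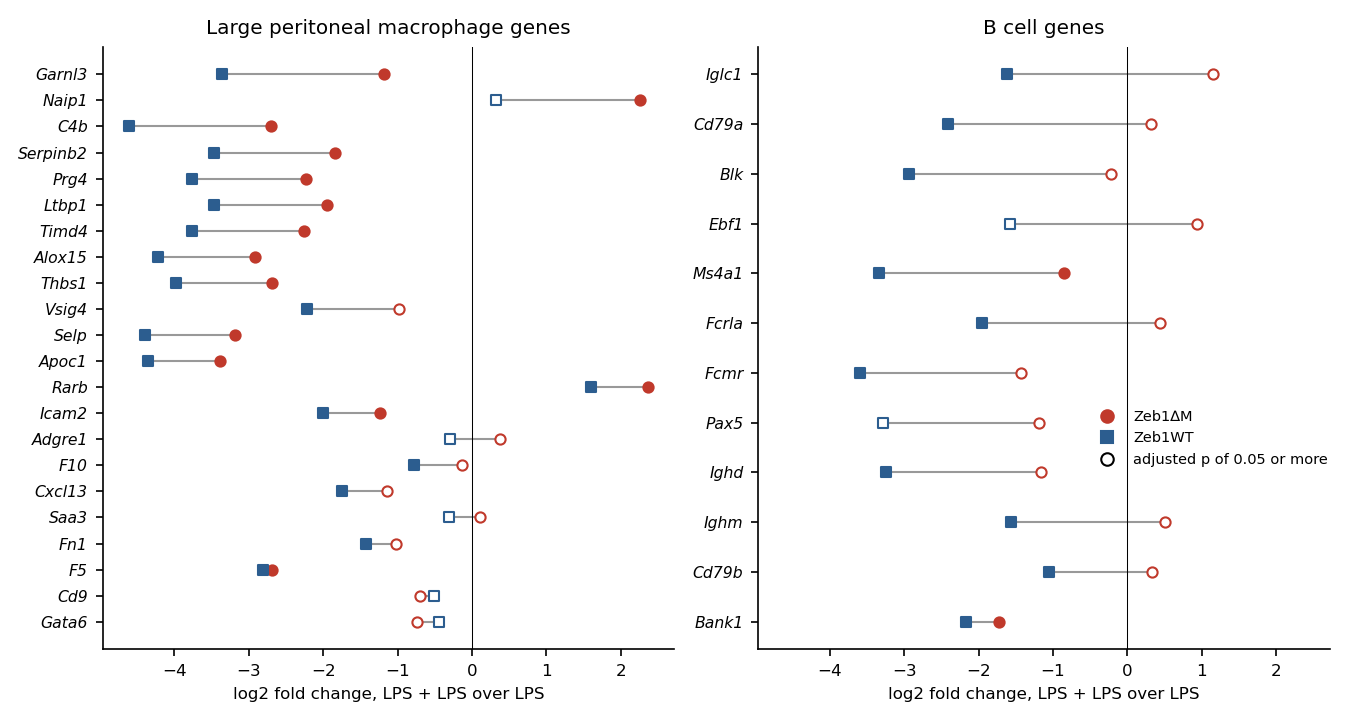
Log2 fold change of LPS + LPS over LPS (x axis) in *Zeb1*∆M (red circles) and *Zeb1*WT macrophages (blue squares) for the 22 large peritoneal macrophage genes and 12 of the 13 tested B cell genes, ordered by the interaction. Filled symbols passed the edgeR test within that genotype; the *Zeb1*∆M circle lies to the right of the *Zeb1*WT square for 20 of the 22 and 12 of the 12 genes plotted.

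Genes with an interaction below 0 were fewer at a small p. *Gba2*, the non-lysosomal glucosylceramidase, had 18.4, 16.3 and 13.2 CPM in *Zeb1*∆M LPS + LPS against 5.45, 8.43 and 9.51 CPM in *Zeb1*∆M LPS libraries, and 13.2, 16.3 and 9.52 CPM in *Zeb1*WT LPS + LPS against 1.38, 0.726 and 2.18 CPM in *Zeb1*WT LPS libraries. Genotypes overlapped after 2 doses, and after 1 dose the *Zeb1*WT libraries were the lower ones. *Gba2* rose by 1.03 in *Zeb1*∆M and by 3.19 in *Zeb1*WT, with an interaction of −2.16 ± 0.50 (edgeR adjusted p = 0.22, DESeq2 0.0072). *Dolpp1*, a phosphatase of the dolichol cycle that feeds N-glycosylation, had 21.1, 19.9 and 22 CPM in *Zeb1*∆M LPS + LPS, 15, 11.9 and 11.8 CPM in *Zeb1*∆M LPS, 20.01, 19.5 and 26.6 CPM in *Zeb1*WT LPS + LPS and 5.91, 4.17 and 2.18 CPM in *Zeb1*WT LPS libraries. Its interaction was −1.71 ± 0.41 (edgeR adjusted p = 0.25, DESeq2 0.015).

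*Shisa3*, a membrane adaptor known to hold back Wnt and FGF receptors, had 8.27, 11.5 and 12.2 CPM in *Zeb1*∆M LPS + LPS against 2.29, 7.65 and 3.37 CPM in *Zeb1*∆M LPS libraries, and 17.8, 21.4 and 16.8 CPM in *Zeb1*WT LPS + LPS against 1.65, 1.63 and 1.67 CPM in *Zeb1*WT LPS libraries. It was lower in *Zeb1*∆M after 2 doses and higher after 1, without overlap in either arm, and the interaction was −2.25 ± 0.52 (edgeR adjusted p = 0.22, DESeq2 0.011). *Rcn1*, a calcium-binding protein of the endoplasmic reticulum, had 13, 9.63 and 8.87 CPM in *Zeb1*∆M LPS + LPS, 63.6, 77.7 and 72.6 CPM in *Zeb1*∆M LPS, 25.6, 40.1 and 13.8 CPM in *Zeb1*WT LPS + LPS and 53.9, 60.3 and 53.3 CPM in *Zeb1*WT LPS libraries. It fell by 2.76 in *Zeb1*∆M and by 1.08 in *Zeb1*WT, with an interaction of −1.69 ± 0.42 (edgeR adjusted p = 0.28, DESeq2 0.041).

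*Steap4*, a metalloreductase of iron and copper handling, had 67.8, 65.4 and 79.7 CPM in *Zeb1*∆M LPS + LPS against 205, 155 and 174 CPM in *Zeb1*∆M LPS libraries, and 73.9, 211 and 184 CPM in *Zeb1*WT LPS + LPS against 152, 140 and 123 CPM in *Zeb1*WT LPS libraries. The first *Zeb1*WT LPS + LPS library was at the level of the *Zeb1*∆M ones and the other two far above them. The interaction was −1.5 ± 0.41 (edgeR adjusted p = 0.37, DESeq2 0.091), and −1.83 without that library (edgeR adjusted p = 0.030). *Clec4a1*, *Lrrc25*, *Fam49b*, *Brd9* and *Cdkn2d*, the remaining ones of the 10 with the smallest p below 0, had interactions between −0.83 and −0.995, with adjusted p of 0.34 to 0.36 by edgeR and 0.073 to 0.086 by DESeq2.

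Of the 3 genes called in opposite directions in the 2 genotypes, *Ift140*, a part of the transport complex of cilia, had the highest level. It had 7.497, 5.68 and 5.93 CPM in *Zeb1*∆M LPS + LPS against 3.43, 3.13 and 2.59 CPM in *Zeb1*∆M LPS libraries, and 3.84, 3.73 and 3.06 CPM in *Zeb1*WT LPS + LPS against 8.99, 7.26 and 6.47 CPM in *Zeb1*WT LPS libraries. It rose by 1.07 in *Zeb1*∆M (edgeR adjusted p = 0.0077) and fell by 1.10 in *Zeb1*WT (0.0051), without overlap in either, and the interaction was 2.16 ± 0.37 (edgeR adjusted p = 0.12, DESeq2 3.7e-05). The others were *Xrcc5*, the Ku80 subunit of DNA repair, at 0.12 to 4.66 CPM with an interaction of 4.21 (edgeR adjusted p = 0.18, DESeq2 0.0019), and *Cdc42bpa*, a kinase downstream of CDC42, at 0.177 to 4.04 CPM with an interaction of 4.39 (edgeR adjusted p = 0.21, DESeq2 0.0046).

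The 10 genes with the smallest p above 0 and the 10 below 0 were searched for the E-box sequences CACCTG and CAGGTG, each the reverse complement of the other, in RefSeq promoter windows from 250 bases before to 50 after a transcription start (GRCm38.p6). Of the first 10 genes, 5 had 7 windows in the table and 2 windows held a match, and of the other 10 genes, 7 had 8 windows and 2 held a match. Over all 32851 windows of the table, 20.2% held a match. The windows with a match are shown 5′ to 3′ on the strand of the gene with the E-box in capitals, to give its place and surroundings. They are *Bcar3* (chr3:122419507-122419806, plus strand), *Cd79a* (chr7:24897247-24897546, plus strand), *Dolpp1* (chr2:30392004-30392303, plus strand) and *Gba2* (chr4:43578815-43579114, minus strand).
Bcar3: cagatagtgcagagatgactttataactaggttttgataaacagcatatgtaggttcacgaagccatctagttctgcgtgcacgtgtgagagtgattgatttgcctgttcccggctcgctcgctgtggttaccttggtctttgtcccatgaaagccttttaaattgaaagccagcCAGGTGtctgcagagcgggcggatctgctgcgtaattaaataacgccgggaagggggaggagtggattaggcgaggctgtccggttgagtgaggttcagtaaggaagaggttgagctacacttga
Cd79a: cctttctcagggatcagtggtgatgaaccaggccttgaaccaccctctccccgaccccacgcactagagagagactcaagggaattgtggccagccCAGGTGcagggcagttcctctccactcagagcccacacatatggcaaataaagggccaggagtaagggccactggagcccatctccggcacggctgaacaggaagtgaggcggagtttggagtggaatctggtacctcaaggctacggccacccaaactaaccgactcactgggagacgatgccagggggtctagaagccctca
Dolpp1: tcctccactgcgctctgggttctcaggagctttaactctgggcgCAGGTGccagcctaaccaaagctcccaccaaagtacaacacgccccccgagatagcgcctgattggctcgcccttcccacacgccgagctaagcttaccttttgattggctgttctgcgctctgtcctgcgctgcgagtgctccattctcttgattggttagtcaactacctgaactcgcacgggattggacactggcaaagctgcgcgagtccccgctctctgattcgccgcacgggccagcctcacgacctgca
Gba2: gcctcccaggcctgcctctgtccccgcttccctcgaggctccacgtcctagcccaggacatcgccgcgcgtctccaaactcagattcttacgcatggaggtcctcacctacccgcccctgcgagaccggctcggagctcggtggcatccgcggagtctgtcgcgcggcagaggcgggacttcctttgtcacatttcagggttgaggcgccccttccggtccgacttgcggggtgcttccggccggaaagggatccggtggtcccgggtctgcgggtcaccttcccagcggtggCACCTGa
The match is CAGGTG in *Bcar3*, *Cd79a* and *Dolpp1*, upstream of the start, and CACCTG in *Gba2*, downstream of it. A match gives letters in a window and does not show binding, and these counts are too few to set against the share of all windows.

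Among genes the study names, *Il6*, *Il1a*, *Nfkb1*, *Sqstm1*, *Il4* and *Retnlg* had interactions that passed neither the edgeR nor the DESeq2 test. *Il6*, a main cytokine of the acute LPS response, had 7.95, 10.5 and 16.2 CPM in *Zeb1*∆M LPS + LPS against 43.8, 75.6 and 54.2 CPM in *Zeb1*∆M LPS libraries, and 7.60, 21.2 and 10.97 CPM in *Zeb1*WT LPS + LPS against 143, 153 and 133 CPM in *Zeb1*WT LPS libraries. After 2 doses the genotypes overlapped, and after 1 dose *Zeb1*∆M was the lower without overlap. *Il6* fell by 2.33 in *Zeb1*∆M and by 3.43 in *Zeb1*WT, with an interaction of 1.10 and a 95% interval of 0.05 to 2.16 (edgeR adjusted p = 0.67, DESeq2 0.50). *Il1a*, interleukin 1 alpha, fell in both genotypes, with log2 fold changes of −1.32 in *Zeb1*∆M and −2.30 in *Zeb1*WT and an interaction of 0.98 ± 0.36 (edgeR adjusted p = 0.55, DESeq2 0.31). *Il10*, the anti-inflammatory cytokine, taken from the list of tolerance regulators, had 18.3, 15 and 26.2 CPM in *Zeb1*∆M LPS + LPS, 26.3, 19.7 and 28.8 CPM in *Zeb1*∆M LPS, 14.1, 39.9 and 51.9 CPM in *Zeb1*WT LPS + LPS and 103, 108 and 111 CPM in *Zeb1*WT LPS libraries. Its interaction was 1.27 ± 0.51 (edgeR adjusted p = 0.61, DESeq2 0.40). Over the 26 genes of that list, 11 were above 0 (46.6% over the genes tested) and 15 below 0, with a median of −0.10. Unadjusted p was under 0.05 for 1 gene above 0 (4.8% over the genes tested) and 2 genes below 0 (2.59%).

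*Nfkb1*, a subunit of NF-κB, fell by 1.26 in *Zeb1*∆M and by 1.38 in *Zeb1*WT. Its interaction of 0.12 had a 95% interval of −0.46 to 0.69, which leaves out a difference of 2-fold. *Sqstm1*, the autophagy receptor p62, fell by 0.69 in *Zeb1*∆M and by 1.06 in *Zeb1*WT, with an interaction of 0.38 (interval −0.24 to 0.99). *Il4*, which drives alternative activation, was at 0.115 to 0.163 CPM in *Zeb1*∆M LPS + LPS, 0.264 to 4.34 CPM in *Zeb1*∆M LPS, 0.574 to 11.4 CPM in *Zeb1*WT LPS + LPS and 3.71 to 4.36 CPM in *Zeb1*WT LPS libraries, and its interaction of −4.02 (edgeR adjusted p = 0.57, DESeq2 0.18) had an interval of −7.28 to −0.77. The 11.4 CPM came from the second *Zeb1*WT LPS + LPS library, against 0.574 and 1.11 CPM in the others. The interaction of *Il4* thus rests on a *Zeb1*∆M LPS + LPS group close to 0, and it lay between −4.54 and −1.66 with libraries left out. *Retnlg*, a resistin-like gene of neutrophils, was at 24.5 to 52.5 CPM in *Zeb1*∆M LPS + LPS, 7.30 to 15.04 CPM in *Zeb1*∆M LPS, 32.5 to 515 CPM in *Zeb1*WT LPS + LPS and 53.3 to 58.7 CPM in *Zeb1*WT LPS libraries. Its interaction was −0.31 and turned to 0.90 without the second *Zeb1*WT LPS + LPS library, the one at 515 CPM.

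**Figure D4:**
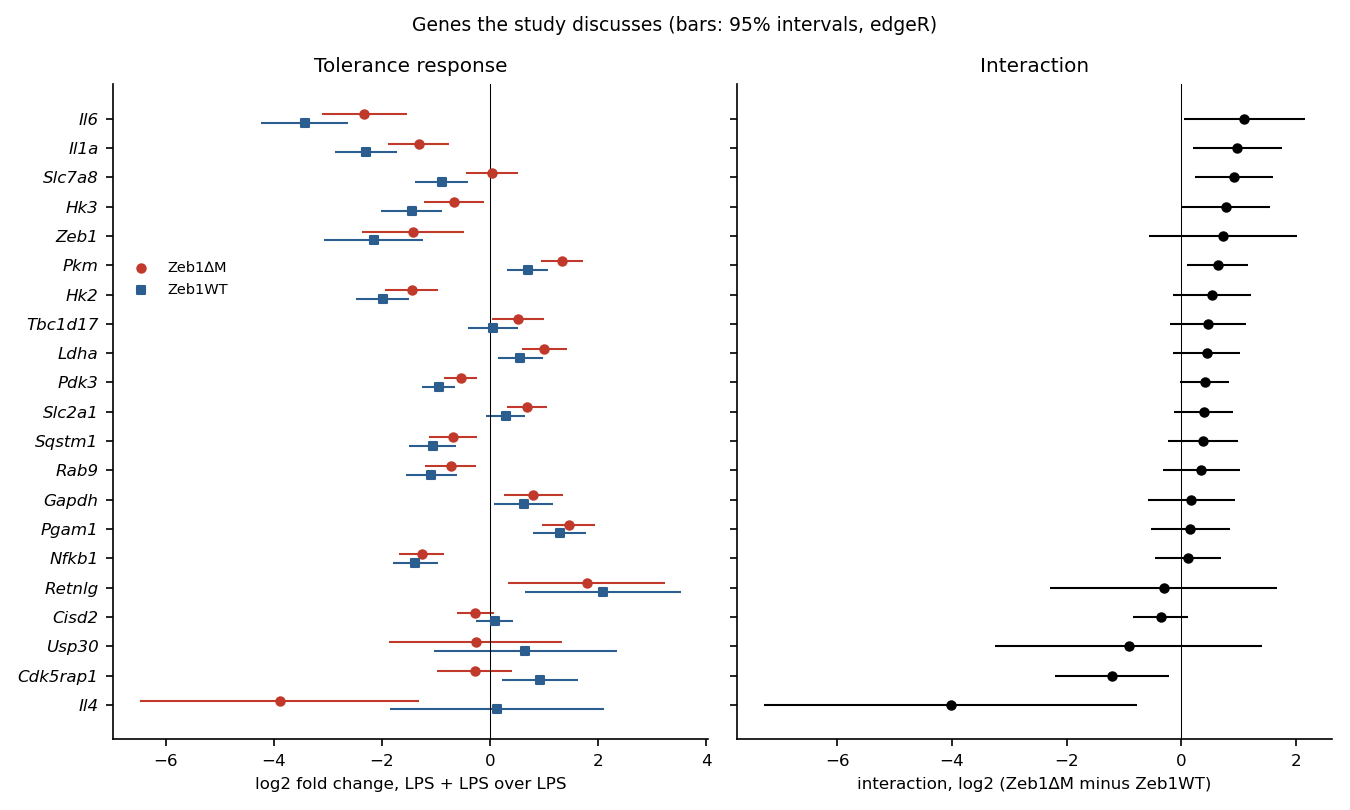
For genes the study follows, the log2 fold change of LPS + LPS over LPS in *Zeb1*∆M (red) and *Zeb1*WT macrophages (blue) on the left and the interaction on the right, each with its 95% interval from edgeR. The interval of the interaction spans 0 for *Nfkb1*, *Sqstm1* and *Retnlg* and lies above 0, at an unadjusted p under 0.05, for *Il6*, *Il1a*, *Slc7a8*, *Hk3* and *Pkm*. For *Il4* the interval lies below 0.

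Genes of glycolysis and glucose transport were mostly above 0, by small amounts. Of 24 genes, 22 were above 0 (46.6% over the genes tested), 3 with an unadjusted p under 0.05 (4.8%), with a median of 0.34. With tolerance 14 rose (18.3%) and 6 fell (16.1%) in *Zeb1*∆M, and 10 rose (21.1%) and 7 fell (17.8%) in *Zeb1*WT. *Pkm*, pyruvate kinase, had 3548, 3264 and 3419 CPM in *Zeb1*∆M LPS + LPS against 1412, 1107 and 1539 CPM in *Zeb1*∆M LPS libraries, and 3295, 2627 and 3508 CPM in *Zeb1*WT LPS + LPS against 2053, 1776 and 1996 CPM in *Zeb1*WT LPS libraries. The genotypes overlapped after 2 doses and did not after 1. *Pkm* rose by 1.33 in *Zeb1*∆M and by 0.70 in *Zeb1*WT, with an interaction of 0.64 ± 0.25 (edgeR adjusted p = 0.59, DESeq2 0.27). The hexokinases *Hk1*, *Hk2* and *Hk3*, which trap glucose, had interactions of 0.96, 0.54 and 0.78 (edgeR adjusted p = 0.57, 0.75 and 0.67, none passing by DESeq2), and *Ldha*, *Slc2a1*, *Gapdh* and *Pgam1* had 0.45, 0.40, 0.18 and 0.16.

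Among 22 tested amino acid transport genes, 16 were above 0 (46.6% over the genes tested), 4 with an unadjusted p under 0.05 (4.8%), and DESeq2 called 1 (0.653%), with a median of 0.25. *Slc7a8*, a carrier of large neutral amino acids, had 131, 145 and 134 CPM in *Zeb1*∆M LPS + LPS against 92.7, 158 and 151 CPM in *Zeb1*∆M LPS libraries, and 137, 101 and 77.9 CPM in *Zeb1*WT LPS + LPS against 195, 200 and 191 CPM in *Zeb1*WT LPS libraries. Tolerance left it overlapping in *Zeb1*∆M and lower without overlap in *Zeb1*WT, with an interaction of 0.92 ± 0.32 (edgeR adjusted p = 0.50, DESeq2 0.24). *Slc38a1*, a glutamine carrier, had 35.2, 40.9 and 38.9 CPM in *Zeb1*∆M LPS + LPS, 35.01, 24.9 and 38.9 CPM in *Zeb1*∆M LPS, 44.6, 37.0 and 29.8 CPM in *Zeb1*WT LPS + LPS and 63.8, 69.2 and 73.8 CPM in *Zeb1*WT LPS libraries. Its interaction was 1.11 ± 0.28 (edgeR adjusted p = 0.28, DESeq2 0.034). *Slc7a2*, a carrier of arginine, fell by 0.63 in *Zeb1*∆M and by 1.60 in *Zeb1*WT, with an interaction of 0.97 ± 0.28 (edgeR adjusted p = 0.38, DESeq2 0.052). *Arg1*, the enzyme that breaks arginine down, rose by 7.40 in *Zeb1*∆M and by 5.94 in *Zeb1*WT, with an interaction of 1.46 ± 0.49 (edgeR adjusted p = 0.49, DESeq2 0.17).

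Several lists had medians within the quartiles of the genes tested, which are −0.36 and 0.36. Mitochondrial translation had 8 of 32 genes above 0 and 24 below 0 with a median of −0.15, and the 12 tested genes of the mitochondrial genome had a median of 0.07. Autophagy and mitophagy had 14 of 31 genes above 0 with a median of −0.01. In both genotypes 6 of these genes rose and 5 fell with tolerance. Over the genes tested 18.3% rose and 16.1% fell in *Zeb1*∆M, and 21.1% rose and 17.8% fell in *Zeb1*WT. Interferon-stimulated genes fell with tolerance as a whole. In *Zeb1*∆M 34 of 34 fell (16.1% over the genes tested), with a median of −3.55. In *Zeb1*WT 34 of 34 fell (17.8%), with a median of −3.91. Their interactions had a median of 0.30, with 24 of 34 above 0 (46.6% over the genes tested) and 6 of these at an unadjusted p under 0.05 (4.8%). *Ifit2*, an antiviral RNA-binding protein, was at 5.68 to 27.6 CPM in *Zeb1*∆M LPS + LPS and at 653 to 1193 CPM in *Zeb1*∆M LPS, against 5.08 to 7.42 CPM in *Zeb1*WT LPS + LPS and 1347 to 2375 CPM in *Zeb1*WT LPS libraries, with an interaction of 2.10 ± 0.69 (edgeR adjusted p = 0.47, DESeq2 0.11).

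The medians of inflammatory cytokines, cell cycle genes and adhesion genes lay above the upper quartile of the genes tested, which is 0.36. With libraries left out they lay between 0.28 and 0.58 for inflammatory cytokines and between 0.17 and 0.69 for adhesion genes. The lower ends of these 2 ranges are under that quartile. For cell cycle genes the range was 0.37 to 0.67. Inflammatory cytokines had 13 of 22 tested genes above 0 (46.6% over the genes tested) with a median of 0.49. At an unadjusted p under 0.05, 4 were above 0 (4.8%) and 1 below 0 (2.59%). Among the 4 is *Il10*, the anti-inflammatory cytokine that is also in the list of tolerance regulators. Of the 22 cytokine genes, 2 were called lower in *Zeb1*∆M after 2 doses (0.0537% over the genes tested) and 3 after 1 dose (1.04%). Adhesion and selectin genes had 12 of 20 above 0 with a median of 0.38. Of these, 5 had an unadjusted p under 0.05 (4.8% over the genes tested) and DESeq2 called 2 (0.653%). The large macrophage list also holds 5 of the 20 genes. Chemokines had 15 of 24 above 0 with a median of 0.34, and cytokine receptors 11 of 25 with −0.11. For LPS recognition genes the median was 0.13, with 13 of 21 above 0, and for NF-κB subunits and inhibitors 0.07, with 11 of 15 above 0. Cell cycle genes were above 0 for 20 of 25, with a median of 0.45 and 4 above 0 at an unadjusted p under 0.05 (4.8% over the genes tested). With tolerance 21 of them rose in *Zeb1*∆M (18.3% over the genes tested), and 17 rose (21.1%) and 2 fell (17.8%) in *Zeb1*WT. *Mcm2*, part of the helicase that opens DNA for replication, had 14.3, 11.8 and 13.9 CPM in *Zeb1*∆M LPS + LPS, 4.31, 5.72 and 5.36 CPM in *Zeb1*∆M LPS, 23.8, 17.6 and 15.5 CPM in *Zeb1*WT LPS + LPS and 20.9, 12.2 and 16.3 CPM in *Zeb1*WT LPS libraries. Its interaction was 1.17 ± 0.35 (edgeR adjusted p = 0.42, DESeq2 0.11).

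**Figure D5:**
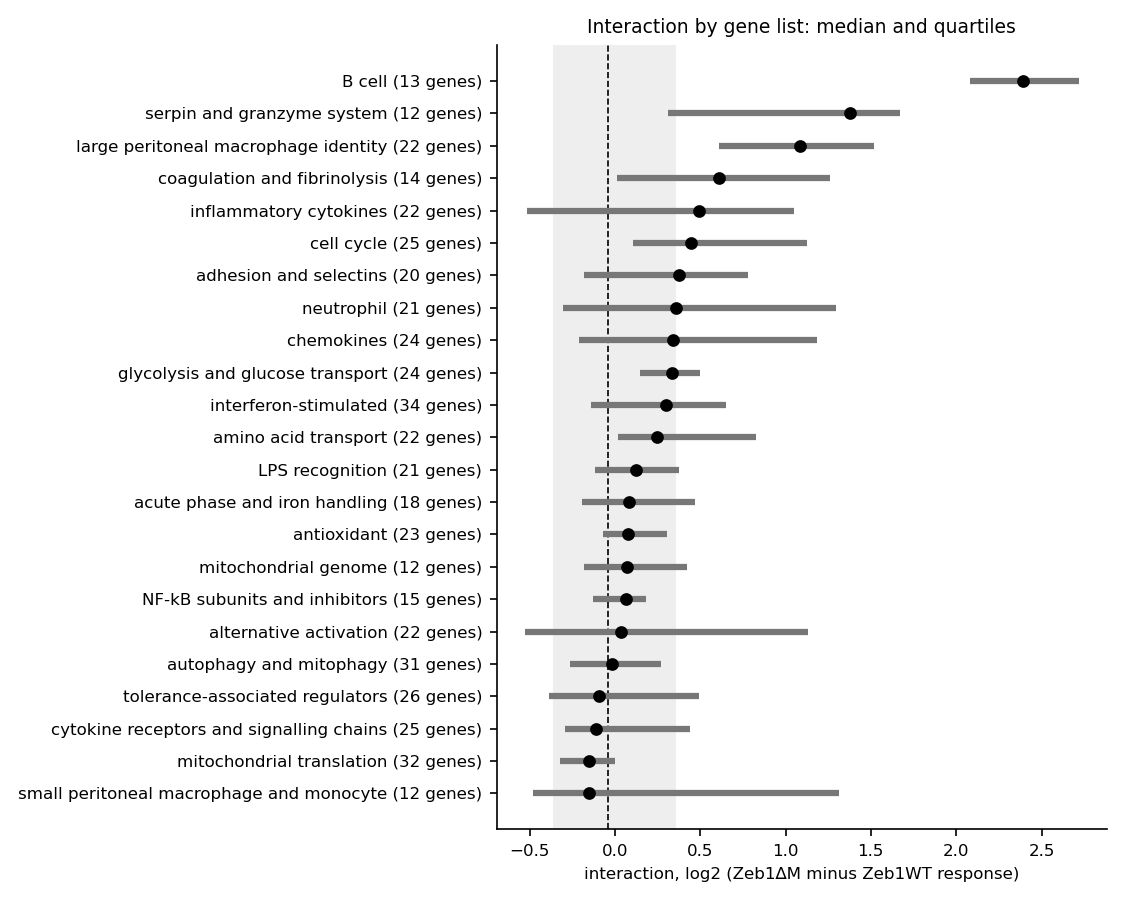
Median (point) and quartiles (bar) of the log2 interaction, *Zeb1*∆M response minus *Zeb1*WT response (x axis), for the 23 gene lists with at least 10 genes tested (y axis). The dashed line and the grey band are the median of −0.04 and the quartiles of the 13029 genes; the B cell list at 2.39, the serpin and granzyme list at 1.38 and the large peritoneal macrophage list at 1.09 lie furthest to the right.

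Read the other way round, the interaction is the genotype difference in LPS + LPS minus that in LPS. In LPS + LPS libraries *Zeb1*∆M exceeded *Zeb1*WT for 42 genes (0.322%) and was below it for 7 (0.0537%), 0.376% in all, and in LPS libraries for 31 (0.238%) and 136 (1.04%), 1.28% in all. These counts rest on single libraries: that after 2 doses was 326 without the first *Zeb1*WT LPS + LPS library and 5 without the second *Zeb1*∆M LPS + LPS library, and that after 1 dose was 252 without the first *Zeb1*WT LPS + LPS library and 26 without the first *Zeb1*∆M LPS library. Over the 625 genes above 0 at an unadjusted p under 0.05, the median change with tolerance was 0.14 in *Zeb1*∆M and −1.36 in *Zeb1*WT, and the median genotype difference was 0.60 after 2 doses and −0.82 after 1. Over the 338 genes below 0 the medians were −0.17 in *Zeb1*∆M and 0.89 in *Zeb1*WT, and −0.36 after 2 doses and 0.57 after 1. Since these genes were chosen by the interaction, the medians describe where the difference sits and test nothing.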

How the data were processed

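RNA-seq of sorted peritoneal macrophages was used from 12 libraries in 4 groups of 3; the 6 metformin libraries entered only an alternative fit. Per the labels and processing notes, the authors made libraries with the TruSeq Stranded mRNA kit, aligned reads with STAR to GRCm38 and quantified genes with RSEM, and deposited whole-number counts per gene; versions, and whether RSEM estimates were rounded, are not given in the sources used here. The table held 55573 genes and no unmapped columns. Genes that share reads with close paralogs, such as immunoglobulin genes, are less certain.

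Counts were tested in R 4.3.3 with edgeR 4.0.16: filterByExpr left 13029 genes, normalisation was TMM, and one quasi-likelihood fit of the 4 group means gave the interaction, both tolerance responses and both genotype differences. P-values were Benjamini-Hochberg adjusted over all genes tested, with 0.05 as threshold. Errors are SE of the log2 fold change, taken from the quasi-likelihood F, and n = 3 per group. CPM are normalised. Alternatives were DESeq2 1.42.0, limma 3.58.1 voom with sample weights, other scaling, filters, a replicate block, all 18 libraries and each library left out; a robust fit and the 2 combined settings without the first Zeb1WT LPS + LPS library were chosen after seeing the data. The code was tested on simulated data. Named genes were any called by edgeR, the 10 with the smallest interaction p in each direction (mean log2 CPM of at least 3, no Gm or Rik symbols), genes the study names, up to 4 per list by p, up to 5 per direction by DESeq2 alone, and those called in opposite directions; the lists and genes were chosen with earlier results of these data known. Promoters came from RefSeq tables of GRCm38.p6, and gene positions from the GENCODE annotation of GRCm38. Values of 2 genes that the rule names are not reported here, though they stay in the fits and the counts of their lists.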

Additional observations from a re-analysis of the deposited data

Results flagged for a closer look

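For 89 genes the test of the difference between the genotypes' tolerance responses passed by DESeq2, and for none of them by edgeR's quasi-likelihood test. The 5 above 0 and the 4 below 0 with the smallest DESeq2 p had interactions on the log2 scale of 4.28 for *Pou2af1*, 3.61 for *Ocln*, 2.63 for *Zbtb32*, 2.52 for *Ms4a1*, 2.07 for *Lbp*, −1.67 for *Rcn1*, −1.68 for *Dolpp1*, −2.16 for *Gba2* and −2.23 for *Shisa3*. *Ocln*, the tight junction protein occludin, had 2.24, 1.69 and 1.61 CPM in *Zeb1*∆M LPS + LPS against 8.18, 8.85 and 9.15 CPM in *Zeb1*∆M LPS libraries, and 0.398, 0 and 0.267 CPM in *Zeb1*WT LPS + LPS against 13.8, 16.1 and 8.14 CPM in *Zeb1*WT LPS libraries, so that its interaction rests on levels close to 0. The values of the other 8 genes in each library stand in the report.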

How the results depend on the processing

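Genes called for the interaction numbered 0 by edgeR and also 0 with median-of-ratios factors, voom, the filter of 1 CPM, the replicate block, all 18 libraries or the robust fit. They numbered 89 by DESeq2, 112 with no count filter, 0 to 3 when single libraries were left out, 225 by DESeq2 and 9 over 18 libraries, both without the first *Zeb1*WT LPS + LPS library. Genotype calls in LPS + LPS, 49 by edgeR, were 374 by DESeq2, 434 with no filter, 30 with the replicate block, 91 over all 18 libraries, 5 to 326 with libraries left out, and 1039 (DESeq2) and 397 (18 libraries) without that first library. Genotype calls in LPS, 167 by edgeR, were 570 by DESeq2, 849 by voom, 529 with no filter, 26 to 252 with libraries left out, and 778 by DESeq2 without that library. Tolerance calls stayed between 3322 and 4805 in *Zeb1*∆M and between 4064 and 5235 in *Zeb1*WT with libraries left out. The correlation of the responses was 0.727 to 0.764 with libraries left out and 0.837 with the 1 CPM filter. The genes compared changed too, since 13418 to 13592 passed the filter with a library left out and 11964 passed that of 1 CPM. The share of this change in the lower and higher correlations was not tested. Which of these settings is nearer the truth was not tested.

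Replicate numbers did not pair the libraries: over 18 pairs the correlations of deviations lay between −0.101 and 0.159. Of 81 named genes, 50 passed in at least 1 alternative and 4 changed sign in one. *Nfkb1* turned to −0.048 (DESeq2) and −0.071 (18 libraries) without the first *Zeb1*WT LPS + LPS library, and *Retnlg* to 0.17 with the replicate block. With libraries left out, *Nfkb1* lay between −0.053 and 0.31, *Gapdh* lay between −0.043 and 0.41, *Retnlg* lay between −0.82 and 0.90 and *Pgam1* lay between −0.036 and 0.37. Medians with libraries left out were −0.21 to 0.23 for small peritoneal macrophages, −0.14 to 0.12 for cytokine receptors, −0.15 to 0.26 for alternative activation, −0.034 to 0.20 for acute phase, −0.020 to 0.29 for the mitochondrial genome, −0.22 to 0.20 for tolerance regulators and −0.073 to 0.094 for autophagy, whose median was 0.0060 with median-of-ratios factors; the causes were not tested. Depth limits genes of a few CPM, such as *Xrcc5* and *Ocln*.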
